A study of Musca domestica with 6 samples.

Results

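The 5 genes described here are GH18 chitinase genes of the housefly, Musca domestica, chosen by the gene names and descriptions of the deposited table from the 14227 genes it holds. The set is not complete: LOC101893352, also described as acidic mammalian chitinase, is not among the 5 and is reported below as a neighbour. LOC101893192 is described as acidic mammalian chitinase-like, LOC101894621 as acidic mammalian chitinase, LOC101898296 as endochitinase and LOC101895047 as probable chitinase 2. The remaining gene carries the symbol chitinase. RNA was sequenced from whole larvae of instar 2, collected 24 h after an injection of double-stranded RNA. In the dsMdCht9 group (3 libraries) that RNA matched MdCht9, a chitinase gene, and in the dsGFP group (3 libraries) it matched GFP, a jellyfish gene that serves as a control sequence. The larvae of all 6 libraries were therefore injected, and no uninjected larvae were analysed here. No source used here gives the strain of the flies or the number of larvae pooled in a library. No annotation used here names MdCht9, so none of the 5 genes is treated as the injected target, and the knockdown itself was not tested.

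Chitin, a polymer of N-acetylglucosamine, stiffens the insect cuticle and the peritrophic matrix that lines the gut. Enzymes of glycosyl hydrolase family GH18 cut the polymer within the chain, and N-acetylglucosaminidases then break the fragments into single sugars. In insects, chitinases take apart the old cuticle before each moult, remodel the peritrophic matrix, and in some families act in the gut. The imaginal disc growth factors (Idgf) share the GH18 fold but lack the catalytic glutamate.

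The annotation set 1 of the 5 genes apart from the label of a catalytic chitinase. All 5 carry the GH18 domain (Glyco_hydro_18) as their Pfam entry, among 22 such genes in the table, and all 5 carry the Gene Ontology term for chitin binding and a term for an extracellular location. The term chitinase activity is attached to 4 of the 5 and is missing from LOC101894621. For that gene the best UniProt match in the authors' deposited table is chitinase-3-like protein 1, whose mammalian form binds chitin without cutting it, with an alignment score of 114. The matches of the other 4 scored 280 to 660. LOC101894621 was also assigned to the KEGG group of chitinase-3-like proteins, whereas LOC101893192, LOC101895047 and chitinase were assigned to the KEGG chitinase group and LOC101898296 to no group. These terms come from similarity searches, and the activity term also stands on 3 of the 12 GH18 genes described as Idgf or as CG5210, whose closest UniProt entry is Idgf6. They do not show activity. The table gives 1 Pfam entry per gene, so a second domain such as a chitin-binding module would not appear in it.

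LOC101898296 matches Endochitinase at a score of 626. An entry of that name is a moulting fluid enzyme of the tobacco hornworm Manduca sexta. LOC101895047 matches Probable chitinase 2 at a score of 660. LOC101893192 (285) and chitinase (280) both match Acidic mammalian chitinase, in mammals an enzyme of stomach and lung. The match descriptions do not give the species of these entries. Scaffolds and positions were taken from the deposited table, which leaves the assembly unnamed. LOC101893192 lies on the minus strand of NW_004764717.1 from 248594 to 250692. Its neighbour LOC101893352 lies on the same strand 2816 bases away, from 253509 to 257807, and is also described as acidic mammalian chitinase. LOC101894621 lies on the minus strand of NW_004768405.1 from 48616 to 49944, and LOC101898296 on the plus strand of NW_004764554.1 from 113786 to 126759. LOC101895047 lies on the plus strand of NW_004766067.1 from 527509 to 536205. The gene chitinase lies on the plus strand of NW_004764870.1 from 230604 to 234861, wholly inside the span of LOC101900723, a leucine-rich repeat-containing protein 16A gene on the minus strand from 133782 to 263979. No source used here says whether strand was used in counting, so reads of these overlapping genes cannot be told apart by strand.

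Libraries held 12876941 to 15439421 counted reads, and 10644 genes passed the filter on low counts, among them all 5 chitinase genes. Levels are given as CPM, which are reads relative to the size of each library after adjustment by the trimmed mean of M-values (TMM). Transcript lengths were not used here, so CPM values are compared between libraries and not between genes. The first principal component of log2 CPM (49.3% of the variance) placed both libraries numbered 3 apart, at 40.2 and 48.2 against -33.5 to -3.04 for the other 4. Marker lists of tissues were drawn by words in gene descriptions, so they hold other genes too. The gut list includes protease inhibitors, serpins and the peritrophic matrix genes, the muscle list non-muscle myosins and the fat body list vitellogenin receptors. Reads in all 6 libraries were found for 113 of 135 gut, 52 of 82 epidermal and 20 of 30 fat body genes. They were also found for 15 of 18 muscle and 6 of 7 haemocyte genes. The same held for 5 of 11 neuronal genes and for both tracheal genes. Whether each library was made from its own pool of larvae is not stated in the labels, and p-values then measure only the spread between libraries, which may be technical.

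None of the 5 chitinases passed the test between dsMdCht9 and dsGFP (edgeR quasi-likelihood F-test, adjusted p = 0.999 for each). Over all tested genes 0% passed, so the absence of a call sets the 5 apart from no other gene. At an unadjusted p under 0.05 there was 1 of the 5, LOC101893192, against 3.58% of all genes. LOC101893192 was at 0.485 of its dsGFP level, LOC101898296 at 0.697, LOC101895047 at 0.852, chitinase at 0.553 and LOC101894621 at 1.25 times its dsGFP level. All dsMdCht9 libraries lay below all dsGFP libraries for 2 of the 5 genes, LOC101893192 and LOC101898296, as for 3.38% of all genes. All lay above for 1, LOC101894621, as for 4.83% of all genes.

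**Figure D1:**
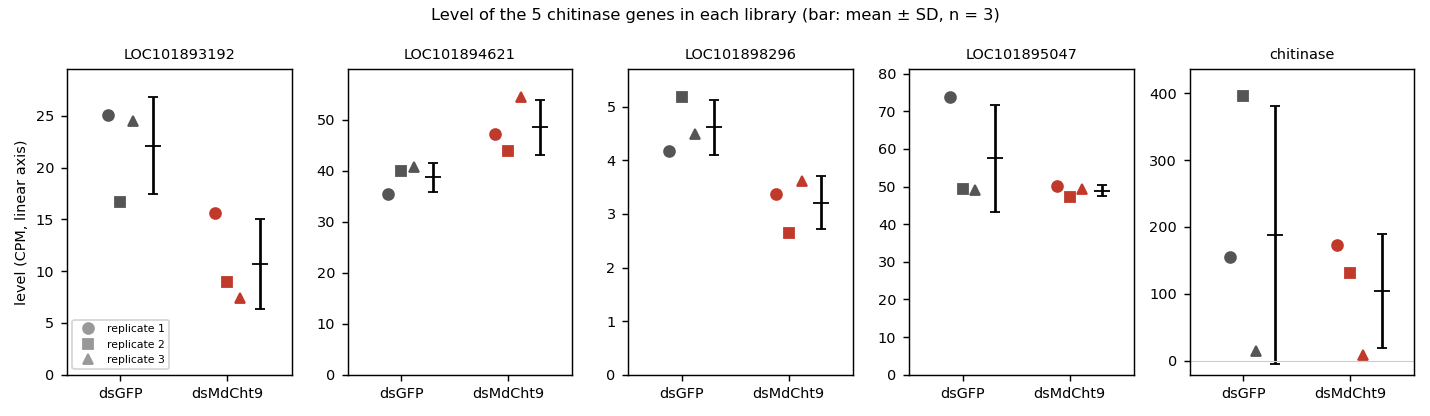
Level of each of the 5 chitinase genes in CPM on linear axes, with 1 point per library, shaped by replicate number, and bars for mean ± SD (n = 3 per group). LOC101893192 and LOC101898296 show all dsMdCht9 points below all dsGFP points, LOC101894621 shows them above, and chitinase is near 0 in both libraries numbered 3 (the SD bar of its dsGFP group reaches below 0).

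LOC101893192, the acidic mammalian chitinase-like gene, had the largest log2 fold change in size among the 5 over all 6 libraries. Its order with chitinase turned in other fits: without dsGFP replicate 3, for example, LOC101893192 was at -0.95 and chitinase at -1.40. Its reads in dsMdCht9 numbered 250, 115 and 101 in replicates 1, 2 and 3, which are 15.7, 8.96 and 7.45 CPM. In dsGFP they numbered 348, 245 and 388, or 25.1, 16.7 and 24.5 CPM, in the same order. The groups did not overlap, but dsMdCht9 replicate 1 and dsGFP replicate 2 nearly met. Mean levels were 10.7 ± 4.37 CPM in dsMdCht9 and 22.1 ± 4.69 in dsGFP (SD, n = 3), with a log2 fold change of -1.05 ± 0.32 (SE) and a 95% interval of -1.79 to -0.30. Its unadjusted p of 0.0125 ranked 90th of 10644 in edgeR's test (adjusted p = 0.999). Within replicate numbers 1, 2 and 3 the difference in log2 CPM was -0.68, -0.89 and -1.70. With the replicate number as a block the adjusted p was 0.396 in edgeR and 0.0330 in DESeq2, so that the call depended on the tool. That DESeq2 fit called 87 of 14227 genes. The summed level of the gut marker list was lowest in dsMdCht9 replicates 1 and 3, at 12192 and 11664 CPM, against 18972 in dsMdCht9 replicate 2 and 14051 to 17353 in dsGFP. The summed epidermal markers (18407 and 20687 CPM against 36227) and muscle markers (18991 and 19356 CPM against 32705) were likewise lower in dsMdCht9 replicates 1 and 3 than in replicate 2. Unlike these lists, LOC101893192 was higher in dsMdCht9 replicate 1 (15.7 CPM) than in dsMdCht9 replicate 2 (8.96 CPM). The part of these lists in the level of LOC101893192 was not tested. In RNA from whole larvae, fewer cells of a type and less RNA per cell cannot be told apart.

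The neighbour LOC101893352 showed no such separation of the groups. Across replicates 1, 2 and 3 it was at 127.1, 129.9 and 153.1 CPM in dsMdCht9 and at 195.0, 162.9 and 92.5 CPM in dsGFP. Its groups overlapped, with a log2 fold change of -0.14 ± 0.28 (95% interval -0.79 to 0.52). In the libraries numbered 3 the pair differed in opposite directions, by -1.70 for LOC101893192 and 0.73 for LOC101893352 in log2 CPM. No source used here says how reads that match more than 1 gene were counted, so reads shared by the pair, if any, could lie with either.

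LOC101894621, the gene annotated as chitinase-3-like, was the 1 member with a higher mean in dsMdCht9. Replicates 1, 2 and 3 held 756, 564 and 739 of its reads in dsMdCht9 (47.3, 43.9 and 54.5 CPM) and 493, 586 and 644 in dsGFP (35.5, 39.9 and 40.7 CPM). Every dsMdCht9 library lay above every dsGFP library in CPM, while the read counts themselves overlapped. Means were 48.6 ± 5.38 and 38.7 ± 2.80 CPM, a log2 fold change of 0.33 ± 0.15 with a 95% interval of -0.01 to 0.67 (edgeR unadjusted p = 0.0583). Its replicates were the tightest of the 5, with a within-group SD of 0.13 in log2 CPM, which is larger than that of 10.8% of tested genes.

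LOC101898296, the endochitinase, was thinly covered. Its 342 reads were split as 54, 34 and 49 over replicates 1, 2 and 3 of dsMdCht9 and as 58, 76 and 71 over those of dsGFP. In CPM these were 3.38, 2.65 and 3.61 against 4.18, 5.18 and 4.49, with no overlap between the groups. The exact Poisson 95% intervals of the dsMdCht9 counts, for counting error only, were 40.6 to 70.5, 23.5 to 47.5 and 36.3 to 64.8 reads. These intervals are in raw reads of libraries of unequal size, so they are not set against the dsGFP reads. As a percentage, counting error was 14.3% in dsMdCht9 replicate 3 (3.61 CPM) and 13.1% in dsGFP replicate 1 (4.18 CPM). These were the nearest libraries of the groups, and counting error alone could close the gap between them. Means were 3.21 ± 0.503 and 4.62 ± 0.512 CPM, a log2 fold change of -0.52 ± 0.23 with a 95% interval of -1.06 to 0.02 (edgeR unadjusted p = 0.0583). Within replicate numbers 1, 2 and 3 the difference in log2 CPM was -0.30, -0.93 and -0.30. With the replicate number as a block the log2 fold change was -0.52 (adjusted p = 0.632 in edgeR).

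LOC101895047, probable chitinase 2, was level in 5 of the 6 libraries. For replicates 1, 2 and 3 the reads were 801, 606 and 670 in dsMdCht9 (50.1, 47.2 and 49.4 CPM) and 1023, 725 and 778 in dsGFP (73.8, 49.4 and 49.2 CPM). The groups overlapped, and dsGFP replicate 1 alone stood high. The log2 fold change was -0.23 ± 0.19 with a 95% interval of -0.68 to 0.22, and -0.01 without dsGFP replicate 1. Group means were 48.9 ± 1.52 CPM in dsMdCht9 and 57.5 ± 14.1 CPM in dsGFP.

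The gene chitinase varied far more between replicates than between groups. Reads in replicates 1, 2 and 3 numbered 2762, 1676 and 114 for dsMdCht9 and 2141, 5807 and 223 for dsGFP. In CPM these were 172.9, 130.6 and 8.40 against 154.4, 395.9 and 14.1. Both libraries numbered 3 were low, dsGFP replicate 2 was high, and the groups overlapped. The highest library was 20.6 times the lowest in dsMdCht9 and 28.1 times in dsGFP. The within-group SD of its log2 CPM was 2.44, which ranked 26th of 10644 genes from the top. The log2 fold change between groups was -0.85 ± 1.29 with a 95% interval of -3.95 to 2.24, so neither a large decrease nor a large increase is excluded by it. It was 0.30 without dsGFP replicate 2, -0.30 without dsMdCht9 replicate 3, -1.43 without dsMdCht9 replicate 1 and -1.40 without dsGFP replicate 3, with no call in any of these. Without both libraries numbered 3 it was -0.85, and within replicate numbers 1, 2 and 3 it was 0.16, -1.60 and -0.74.

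**Figure D2:**
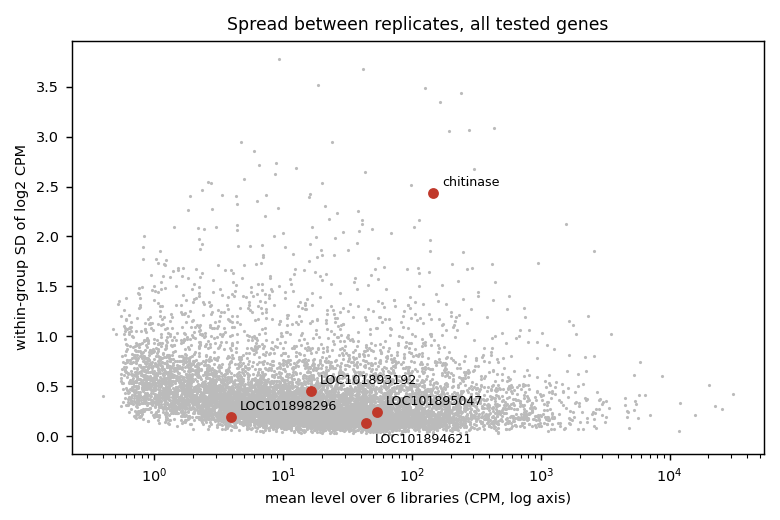
Within-group SD of log2 CPM against the mean level over 6 libraries (CPM, log axis) for the 10644 tested genes in grey and the 5 chitinase genes in red. The gene chitinase stands at an SD of 2.44, and the other 4 lie between 0.13 and 0.45.

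The low level of chitinase in the libraries numbered 3 was not shared by the gene whose span contains it. LOC101900723 was at 137.6 and 159.9 CPM in dsMdCht9 and dsGFP replicate 3 and at 123.6 to 138.4 CPM in the other 4 libraries. The other 4 chitinases were not low in both of these libraries either: LOC101893192 was at 7.45 and 24.5 CPM, LOC101894621 at 54.5 and 40.7, LOC101898296 at 3.61 and 4.49 and LOC101895047 at 49.4 and 49.2. As a share of the reads of the 5 genes together, chitinase took 6.81% and 10.6% in dsMdCht9 and dsGFP replicate 3, and 52.7% to 78.1% in the other 4 libraries. Among the lists of related genes, the peritrophic matrix genes summed to 3357 and 3872 CPM in the libraries numbered 3 and to 4787 to 6479 CPM in the others. The moulting factors summed to 1067 and 1078 CPM in the libraries numbered 3 and to 742.3 to 785.8 CPM in the others. Epidermal markers summed to 20687 and 23989 CPM there, against 18407 CPM in dsMdCht9 replicate 1 and 36227 to 46464 CPM in the other 3. The part of these groups in the level of chitinase was not tested.

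**Figure D3:**
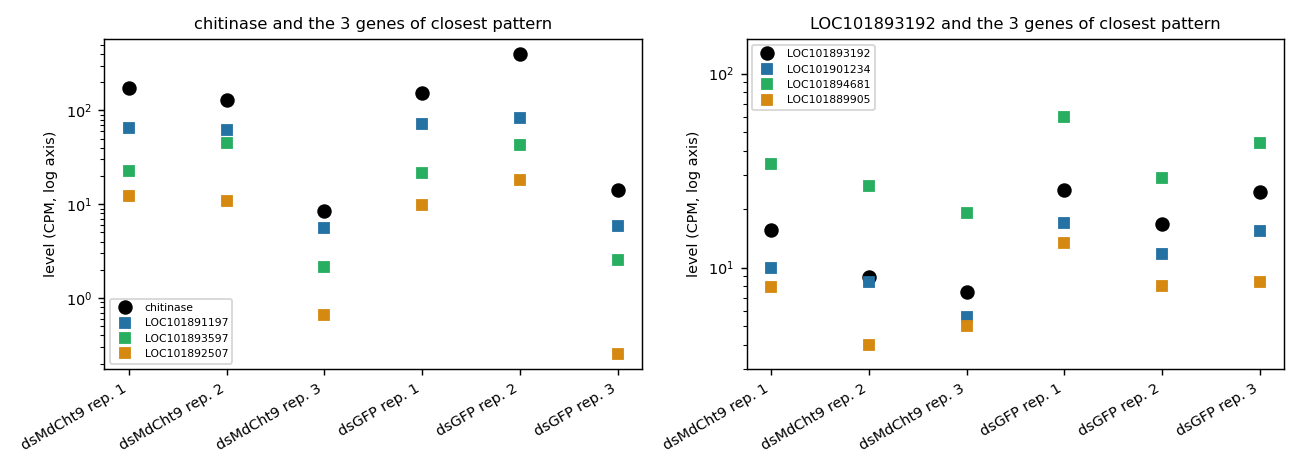
Level in each of the 6 libraries (CPM, log axis) of chitinase (left) and LOC101893192 (right), in black, with the 3 genes of closest pattern for each, in colour. All 4 genes on the left are lowest in dsMdCht9 replicate 3 and dsGFP replicate 3.

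Genes of closest pattern were taken by the root mean square difference of log2 CPM, centred on each gene's mean, over the 6 libraries. This is a description of 6 values per gene. For chitinase they were LOC101891197 (general odorant-binding protein 56d, of a family of secreted carriers of small molecules) at a distance of 0.50, LOC101893597 (repetitive proline-rich cell wall protein 2-like) at 0.59 and LOC101892507 (venom allergen 5-like) at 0.60. LOC101891197 was at 5.53 and 5.82 CPM in dsMdCht9 and dsGFP replicate 3 and at 62.4 to 82.6 CPM in the other libraries. No gene of 6460 lay within 0.25 of chitinase. For LOC101893192 the closest were LOC101901234 (pancreatic lipase-related protein 3) at 0.19, LOC101894681 (trypsin eta-like) at 0.27 and LOC101889905 (turripeptide Ici9.1-like) at 0.29. Lipases digest fats and trypsins digest proteins. LOC101901234, the only gene of 6459 within 0.25, was at 9.89, 8.42 and 5.53 CPM in dsMdCht9 and at 16.9, 11.7 and 15.5 CPM in dsGFP, replicates in order.

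The other 3 chitinases varied little over the libraries. LOC101894621, LOC101895047 and LOC101898296 lay only 0.19, 0.22 and 0.30 from a flat profile. Nearly unvarying genes therefore come about that close to them whatever their course. Within 0.25 lay 2320 genes for LOC101894621, 1630 for LOC101895047 and 289 for LOC101898296. The genes named next lay nearer to each than a flat profile did. The closest to LOC101894621 were LOC101896157 (LSM12 homolog A) at 0.041, LOC101892514 (protein phosphatase PTC7 homolog) at 0.046 and LOC101895063 (myosin-10) at 0.049. Those of LOC101895047 were LOC101889811 (BUD31 homolog) at 0.069, LOC101899389 (Mediator subunit 18) at 0.076 and LOC101897631 (UPF0692 protein CG33108) at 0.078. LOC101896056 (mitochondrial ATPase inhibitor A) at 0.093, LOC101890736 (ethanolaminephosphotransferase 1) at 0.12 and LOC101887625 (histone acetyltransferase KAT2A) at 0.12 were closest to LOC101898296.

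**Figure D4:**
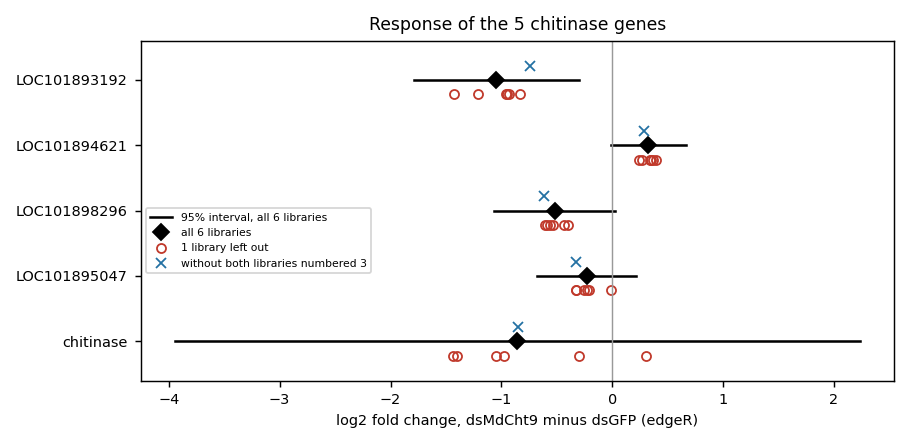
Log2 fold change of the 5 chitinase genes (dsMdCht9 minus dsGFP, edgeR), with the 95% interval over all 6 libraries as a black line, values with 1 library left out as red circles and values without both libraries numbered 3 as blue crosses. The interval of LOC101893192 (-1.79 to -0.30) does not reach 0 before adjustment over all genes, and that of chitinase spans -3.95 to 2.24.

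Ratios of reads within a library do not depend on how libraries are scaled, and they show the members' unequal course. The log2 ratio of LOC101893192 to LOC101894621 was -1.60, -2.29 and -2.87 in dsMdCht9 and -0.50, -1.26 and -0.73 in dsGFP, replicates in order. The group means differed by -1.42. These groups could not overlap. In CPM every dsMdCht9 library lay below every dsGFP library for LOC101893192 and above for LOC101894621. Against LOC101895047 the mean ratio was -2.27 ± 0.54 in dsMdCht9 and -1.37 ± 0.32 in dsGFP (SD, n = 3), again without overlap, a difference of -0.89. Relative to LOC101898296 the groups overlapped, with means of 1.67 ± 0.59 and 2.24 ± 0.48 (SD, n = 3). Against chitinase they overlapped too, at -2.50 ± 2.03 and -2.13 ± 2.72. LOC101893192 separates the groups in CPM by itself, so its ratio to a nearly level gene such as LOC101895047 tends to separate them too. The share of other genes whose ratio does so was not counted. The differences between members are given as values and were not tested.

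**Figure D5:**
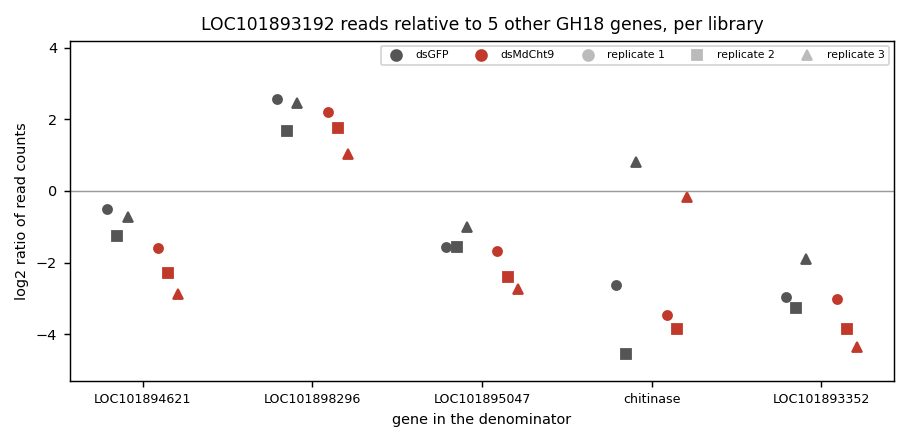
Log2 ratio of the reads of LOC101893192 to those of the other 4 chitinase genes and of its neighbour LOC101893352, with 1 point per library, dsGFP in grey and dsMdCht9 in red. The groups separate against LOC101894621 and LOC101895047 and overlap against the other 3. LOC101893192 also separates the groups by itself in CPM.

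The remaining 17 GH18 genes of the table were tested in the same fit, and 0 were called or had an unadjusted p under 0.05. Of these, 16 were lower and 1 was higher in dsMdCht9 in mean level, at a median log2 fold change of -0.23, beside -0.0033 over all genes. The 5 of them that are not Idgf-like had log2 fold changes of -0.64 ± 0.46 for LOC101900050, -0.59 ± 0.40 for LOC101888642, -0.37 ± 0.33 for LOC101894465, -0.14 ± 0.28 for LOC101893352 and -0.11 ± 0.20 for LOC101897146. Of the 5 chitinases themselves, 4 lay below 0 and 1 above, at a median of -0.52. The marker lists of several tissues also lay mostly below 0: 39 of 48 epidermal genes (median -0.30), 15 of 17 fat body genes (median -0.23), 12 of 14 muscle genes (median -0.28) and 76 of 109 gut genes (median -0.21). Not all lists did so. Haemocyte genes were split as 3 lower and 3 higher, neuronal genes as 1 lower and 3 higher (median 0.21), and tracheal genes as 2 lower and 0 higher. The part of the marker lists in the values of the GH18 genes was not tested. Genes below 0 made up 50.5% of all tested genes. With library size as the only scaling the median of all genes moved to 0.12 and 32.3% lay below 0. The other GH18 genes were then split as 12 lower and 5 higher, and the 5 chitinases still as 4 and 1.

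Lists for other steps of chitin metabolism gave 0 calls in the same test. Of 10 genes for hexosaminidases and N-acetylglucosaminidases, 5 were lower and 5 higher, with a median log2 fold change of -0.055. This list also holds alpha-N-acetylglucosaminidases and cytosolic endo-beta-N-acetylglucosaminidases, so not all of its genes are enzymes of chitin. The smallest p values there belonged to LOC109612747 and LOC101901729, both alpha-N-acetylglucosaminidases, which in mammals break down heparan sulphate, at 1.53 ± 0.45 and 0.58 ± 0.24. LOC101896517, a chitooligosaccharidolytic beta-N-acetylglucosaminidase that would take up the products of the chitinases, was at 35.1 ± 2.89 CPM in dsMdCht9 and 43.1 ± 7.52 CPM in dsGFP, a log2 fold change of -0.29 ± 0.17. The list for the sugar pathway that leads to chitin held 7 genes. It had no gene described as chitin synthase and included LOC101889540, a glucosamine-6-phosphate isomerase, at -0.23. Of these 7 genes, 5 were lower and 2 higher, and the median was -0.22. Library size as the only scaling gave 4 lower and 3 higher, and it moved the median of the 10 hexosaminidase genes to 0.076. The median of all tested genes was then 0.12, with 32.3% below 0. The 7 included LOC101890766 (UDP-N-acetylhexosamine pyrophosphorylase, which makes the activated sugar) at -0.95 ± 0.53 (adjusted p with the replicate block 0.424 in edgeR and 0.0362 in DESeq2), LOC101898598 (glucosamine 6-phosphate N-acetyltransferase) at -0.29 ± 0.20 and LOC101892230 (glutamine--fructose-6-phosphate aminotransferase, the entry step) at -0.12 ± 0.19.

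Peritrophic matrix genes were lower in 13 and higher in 6 of 19 tested (median -0.15). With library size as the only scaling the split was 10 and 9, at a median of -0.026. Under that scaling 32.3% of all tested genes lay below 0 and their median was 0.12. The counts with that scaling given next stand beside the same share. LOC101889759 was at -0.71 ± 0.25, LOC101888182 at -0.50 ± 0.19 and LOC101890591 at -0.38 ± 0.19, all described as peritrophins, which bind chitin in the gut lining. Moulting factors were lower in 13 and higher in 7 of 20 tested (median -0.074), and without dsGFP replicate 3 only 5 were lower. With library size as the only scaling 9 were lower and 11 higher, and the median was 0.034. LOC101899172 (FTZ-F1, a nuclear receptor of the moulting cascade) was at 0.32 ± 0.28, LOC101888439 (ecdysone-induced protein 75B, partial) at -0.61 ± 0.46 and LOC101901779, of no informative description, at -0.33 ± 0.19. The level of LOC101888439 was low, at 0.643 CPM in dsMdCht9 and 0.999 CPM in dsGFP. LOC101896320, also described as ecdysone-induced protein 75B, was at 0.035. The other 26 genes described as chitinases or chitinase-like were tested in 23 cases, of which 20 lay lower and 3 higher (median -0.22), or 14 and 9 with library size as the only scaling. Of these 23 genes 16 are among the 17 GH18 genes counted above, and the other 7 were split as 5 lower and 2 higher. Their smallest p values were those of LOC101893092 (-0.51 ± 0.20), LOC101900748 (-0.86 ± 0.42) and LOC101897958 (-0.32 ± 0.20).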

How the data were processed

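The deposited table holds raw read counts per gene, per the file headers. Per the submitters' processing notes the tools included HTSeq 0.6.0, HISAT2 2.1.0 and StringTie 1.3.2d, without their roles. No source used here gives the genome build, poly(A) selection or strand use. The authors' deposited table also holds p-values, log2 fold changes, ratios, a mean signal and a UniProt alignment score for each gene. Of these only the alignment score was used. All 14227 rows name a gene.

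Counts were tested in R 4.3.3 with edgeR 4.0.16 (filterByExpr, TMM, robust quasi-likelihood F-test, two-sided, group as the only term, Benjamini-Hochberg over 10644 genes, threshold 0.05), after a check on simulated data. SE is the fold change over the square root of F. Log2 CPM used a prior count of 2. Alternatives were DESeq2 1.42.0, limma-voom (limma 3.58.1), other scalings, no filter, a replicate block and libraries left out. The labels number replicates 1 to 3 without saying what a number marks. Deviations from group means correlated at 0.24, 0.39 and 0.65 between same-numbered libraries. The numbers were treated as pairs only in the replicate block fits and in the differences within replicate numbers. The main test was unpaired. Pairing by number comes from the data and rests on the libraries numbered 3. Without them the differences between replicates 1 and 2 correlated at 0.087 between the groups. Also, dsMdCht9 replicate 2 correlated at 0.32 with dsGFP replicate 1. Libraries of a group differed by 33.7 to 143.7 in chi-square per degree of freedom, far beyond sampling noise.

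The members and lists were chosen with earlier results of these data known, so counts over them are descriptions. Lists follow terms in gene descriptions. The genes named are the 5 members, the 3 of smallest p in each chitin list, and for each member the 3 of closest pattern with a mean of at least 5 CPM and an informative description. LOC101893352 and LOC101900723 were added for their positions, and the other GH18 genes for their domain. Transcript lengths and protein sequences were not used here.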

Additional observations from a re-analysis of the deposited data

How the results depend on the processing

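The log2 fold changes of LOC101893192, LOC101894621, LOC101898296 and LOC101895047 kept their sign under every alternative run, and none of the 5 genes was called except LOC101893192 with the replicate block in DESeq2 (-1.10, adjusted p = 0.0330). With the replicate block in edgeR it was -1.09 (adjusted p = 0.396), and its adjusted p ranged from 0.0330 to 0.9999 over all alternatives. With 1 library left out the 5 values ranged from -1.43 to -0.83 for LOC101893192, 0.24 to 0.39 for LOC101894621, -0.60 to -0.40 for LOC101898296, -0.33 to -0.01 for LOC101895047 and -1.43 to 0.30 for chitinase, where the value of 0.30 came without dsGFP replicate 2. Without both libraries numbered 3, LOC101893192 was at -0.74. The ratio of LOC101893192 to chitinase differed between groups by -1.59 to 1.09 with 1 library left out, and so had no stable direction.

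Over all genes edgeR called 0 of 10644 (381 at an unadjusted p under 0.05), and again 0 of 10644 with the replicate block. DESeq2 called 13 of 14208 genes. DESeq2 with the replicate block called 87 of 14227, among them LOC101890766 of the chitin synthesis list (-0.89, adjusted p = 0.0362). Of 101 genes named or counted in the report outside the marker lists, the block gave 0 calls in edgeR and 2 in DESeq2, LOC101893192 and LOC101890766. With library size as the only scaling, the median log2 fold change over all genes shifted by 0.12 and the dsMdCht9 mean of LOC101895047 shifted to 51.2 CPM. LOC101893192 was then at -0.90 and LOC101895047 at -0.096. Depth limits LOC101898296 most, at 34 to 76 reads a library.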
